A study of Mus musculus with 9 samples.

Results

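The interferon regulatory factor genes were taken as the rows of the deposited expression table named Irf followed by 1 digit, apart from Irf9. Described here are 6 genes, Irf1, Irf2, Irf3, Irf5, Irf7 and Irf8, of 15228 listed, and all 6 averaged 0.5 or more RPKM (reads scaled to exon length and library size) over the 9 libraries, as did the 13566 genes tested. The libraries came from retinal cells of wild-type mice sorted for surface CD90 and against CD48, CD15 and CD57, and labelled as primary retinal ganglion cells (RGCs). Each of the 3 groups held 3 libraries: Ctrl from normal mice, ONC from mice on day 3 after optic nerve crush with PBS as vehicle, and TPEN from mice on day 3 after the crush with TPEN, a membrane-permeable zinc chelator. The mice were C57BL/6J, 6 to 8 weeks old, and the injection into the eye followed the crush directly, so the ONC and TPEN groups shared the crush, the injection and the day and differed in the agent. The labels name neither a crush nor an injection for Ctrl, so in comparisons with Ctrl the crush and the injection cannot be told apart. The sources used here do not tie a library to a mouse, and p-values then measure only the spread between libraries.

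Interferon regulatory factors are transcription factors that share an amino-terminal DNA-binding domain with a conserved cluster of tryptophans and bind repeats of the letters GAAA in the promoters of interferon and interferon-induced genes. IRF3 and IRF7 are phosphorylated by the kinases TBK1 and IKKε downstream of nucleic acid sensors and start the transcription of type I interferon, IRF5 acts downstream of Toll-like receptors, and IRF9 is the DNA-binding subunit of a complex that answers to type I interferon. IRF1 activates and IRF2 largely opposes transcription at shared sites, and IRF8 works with PU.1 in the development and identity of myeloid cells including microglia. Irf1 and Irf8 are known as genes that interferon-γ switches on, and Irf7 as a gene that type I interferon switches on.

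The promoters shown are those of the members that passed the test as higher in ONC than in Ctrl, Irf1, Irf7 and Irf8. The sequences are from RefSeq on GRCm38.p6 and run 5′ to 3′ on the strand of the gene, from 250 bases before to 50 bases after the start of transcription. All 6 members had an entry in the promoter table. Capitals mark matches to TTCNNNGAA, the letters of the gamma-activated sequence through which interferon-γ acts. For Irf1 and Irf8, which have 2 promoters in the table, the first is shown.
Irf1, chr11:53769764-53770063, plus strand: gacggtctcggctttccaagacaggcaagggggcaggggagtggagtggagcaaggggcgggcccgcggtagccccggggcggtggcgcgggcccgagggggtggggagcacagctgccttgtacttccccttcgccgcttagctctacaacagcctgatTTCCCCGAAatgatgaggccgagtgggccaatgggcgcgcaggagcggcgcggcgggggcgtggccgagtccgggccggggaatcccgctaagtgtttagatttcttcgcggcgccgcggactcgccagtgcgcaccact
Irf7, chr7:141266375-141266674, minus strand: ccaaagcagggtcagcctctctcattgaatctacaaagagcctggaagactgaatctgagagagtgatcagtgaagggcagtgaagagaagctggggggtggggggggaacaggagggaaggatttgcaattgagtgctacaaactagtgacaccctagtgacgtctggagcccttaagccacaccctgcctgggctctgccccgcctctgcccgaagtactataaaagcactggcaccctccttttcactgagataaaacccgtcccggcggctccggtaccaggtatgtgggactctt
Irf8, chr8:120736108-120736407, plus strand: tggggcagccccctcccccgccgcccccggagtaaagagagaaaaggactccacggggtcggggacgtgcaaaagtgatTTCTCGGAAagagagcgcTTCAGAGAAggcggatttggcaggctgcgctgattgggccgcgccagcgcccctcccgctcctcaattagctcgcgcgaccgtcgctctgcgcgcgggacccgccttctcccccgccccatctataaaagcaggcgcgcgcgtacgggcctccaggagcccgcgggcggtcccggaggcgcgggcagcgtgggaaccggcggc

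The Irf1 window held TTCCCCGAA with its first base at −90 from the start, and the Irf8 window held TTCTCGGAA and TTCAGAGAA at −171 and −153. The Irf2 promoter held TTCCGAGAA and also GAAAATGAAA, the only match among the members to the repeat the family binds (GAAA, 2 free bases and GAAA). The windows of Irf3, Irf5 and Irf7 and the second windows of Irf1 and Irf8 matched neither motif on either strand. Of 32851 promoters of 300 bases, 8.30% held TTCNNNGAA and 3.44% held the GAAA repeat on either strand. A match is a description of the letters in the window, and no binding was measured.

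Irf3, the constitutive member that acts with the nucleic acid sensors, was the most abundant of the family in all 9 libraries, and Irf8 and Irf1 were the least. Per length, Irf3 was at 20.8 ± 0.666 RPKM in Ctrl (mean ± SD, n = 3, here and below), 3.81 times Irf2, the next. Irf2, Irf5 and Irf7 followed in Ctrl at 5.47 ± 0.550, 4.22 ± 0.442 and 3.49 ± 0.381 RPKM, with ranges that did not overlap. Irf1 at 0.342 ± 0.0606 RPKM and Irf8 at 0.140 ± 0.0548 RPKM were the lowest in Ctrl, again without overlap. The order changed in ONC, where Irf7 at 5.73 ± 0.355 RPKM stood between Irf2 at 6.33 ± 0.395 and Irf5 at 5.20 ± 0.458 with overlapping ranges, and Irf8 at 1.40 ± 0.0373 passed Irf1 at 1.07 ± 0.114. In TPEN the ranges of Irf5 and Irf7 overlapped, as did those of Irf8 and Irf1. Depth bears on the low members: libraries held 19946993 to 23109754 reads, of which Irf8 took 14 to 28 in Ctrl and 83 to 234 after the crush and Irf1 26 to 106, against 1199 to 1658 for Irf3.

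**Figure D1:**
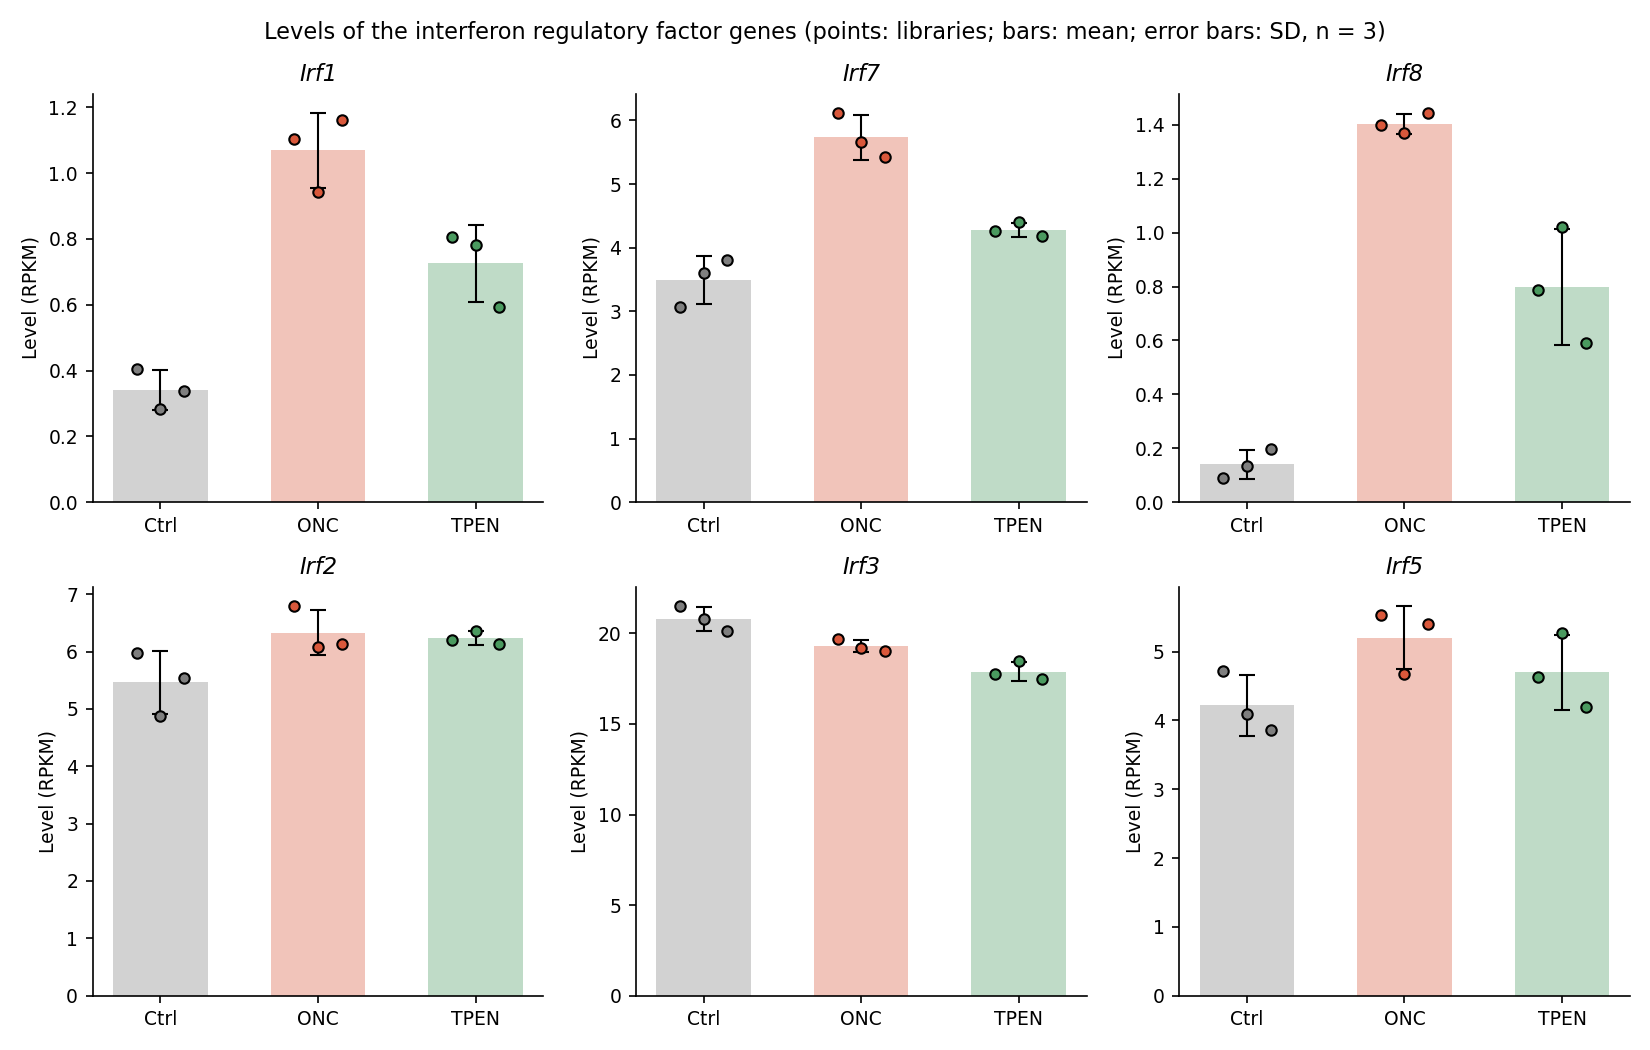
Level of each of the 6 genes in RPKM (vertical axis, from 0, with a separate scale in each panel) in the Ctrl, ONC and TPEN groups, with points for libraries, bars for group means and error bars for the SD (n = 3). Irf1, Irf7 and Irf8 were high in all 3 ONC libraries, low in the Ctrl libraries and between them in TPEN, and the Irf3 libraries were highest in Ctrl and lowest in TPEN.

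ONC/Ctrl asked what differed at day 3 after the crush with PBS injection. The interferon-inducible members Irf8, Irf1 and Irf7 rose, and Irf2, Irf3 and Irf5 did not pass the test. Of the 6 tested members, 3 were called higher (limma on log2(RPKM + 0.1), Benjamini-Hochberg adjusted p under 0.05 over all 13566 genes) and 0 lower, against 11.7% of all tested genes higher and 6.97% lower. At an unadjusted p under 0.05, 5 members were higher and 1, Irf3, lower, against 18.4% and 13.2% of all tested genes at that threshold, and voom also called Irf3 lower. The same 3 were past 1.5-fold as well, a rule that 4.58% of tested genes met in the upward direction. Irf1 and Irf8 averaged under 0.5 RPKM in Ctrl and passed the filter through the crushed groups, which bears on the counts here and in TPEN/Ctrl. Without the filter on low genes both were still called in ONC/Ctrl (limma adjusted p = 0.000223 for Irf1 and 1.67e-05 for Irf8). The groups did not overlap for 5 members, 4 higher and 1 lower, as for 36.5% of tested genes in either direction. The median log2 fold change was 0.50 over the 6 members and 0.017 over all tested genes. The background moved with the scaling: 62.7% of all calls were higher ones, but 46.7% after quantile normalization, 46.7% with voom on whole reads and 40.7% with GC and length trends removed, and the 3 calls and their direction held under each of these.

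Irf8, the myeloid member, had the largest change of the family. It was at 0.0885, 0.135 and 0.198 RPKM in the Ctrl libraries and at 1.40, 1.37 and 1.44 RPKM in the ONC libraries. Every ONC library was far above every Ctrl library, and the spread between the ONC libraries was small. The log2 fold change was 2.67 (SE 0.22, adjusted p = 2.39e-05), which is 6.37-fold on the log2(RPKM + 0.1) scale with a 95% confidence interval of 4.53 to 8.95, and the ratio of mean RPKM was 10.0. Its size rests on few Ctrl reads: the log2 value was 1.08 with a pseudocount of 1 RPKM and 3.34 with voom, and adjusted p was at most 0.000266 in each of 16 alternatives. Since these are bulk samples, more cells of a type that expresses a gene and more RNA per cell cannot be told apart here or below.

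Irf1, which activates interferon-induced promoters, was at 0.404, 0.283 and 0.338 RPKM in Ctrl and at 1.11, 0.942 and 1.16 RPKM in ONC. The groups were well apart. The log2 fold change was 1.41 (SE 0.17, adjusted p = 0.000323), or 2.66-fold with an interval of 2.04 to 3.46, and 0.62 on the log2 scale with a pseudocount of 1 RPKM. Irf7, which amplifies the type I interferon response, was at 3.07, 3.60 and 3.81 RPKM in Ctrl and at 6.12, 5.66 and 5.42 RPKM in ONC, again without overlap. Its log2 fold change was 0.70 (SE 0.087, adjusted p = 0.000390), or 1.63-fold with an interval of 1.42 to 1.86, from 260 or more reads in each library. All 3 calls held without any of the 9 libraries, with adjusted p of at most 0.00264.

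Irf3, Irf5 and Irf2 moved little. Irf3 was at 21.5, 20.8 and 20.2 RPKM in Ctrl and at 19.7, 19.2 and 19.0 RPKM in ONC, so that the groups did not overlap, but the log2 difference of −0.11 had an adjusted p of 0.0850. It passed in 3 of 17 alternatives, quantile normalization, voom and the GC and length correction, with adjusted p as low as 0.00747. In the others the adjusted p was as high as 0.244, without Ctrl replicate 1. Irf5 was at 4.71, 4.10 and 3.86 RPKM in Ctrl and at 5.53, 4.68 and 5.40 RPKM in ONC, with 1 ONC library inside the Ctrl range (log2 difference 0.30, adjusted p = 0.0907). Irf2 was at 5.98, 4.89 and 5.54 RPKM in Ctrl and at 6.79, 6.08 and 6.13 RPKM in ONC, with a log2 difference of 0.21 and an adjusted p of 0.0988. The 95% intervals of the log2 differences were −0.20 to −0.021 for Irf3, 0.053 to 0.54 for Irf5 and 0.033 to 0.39 for Irf2.

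**Figure D2:**
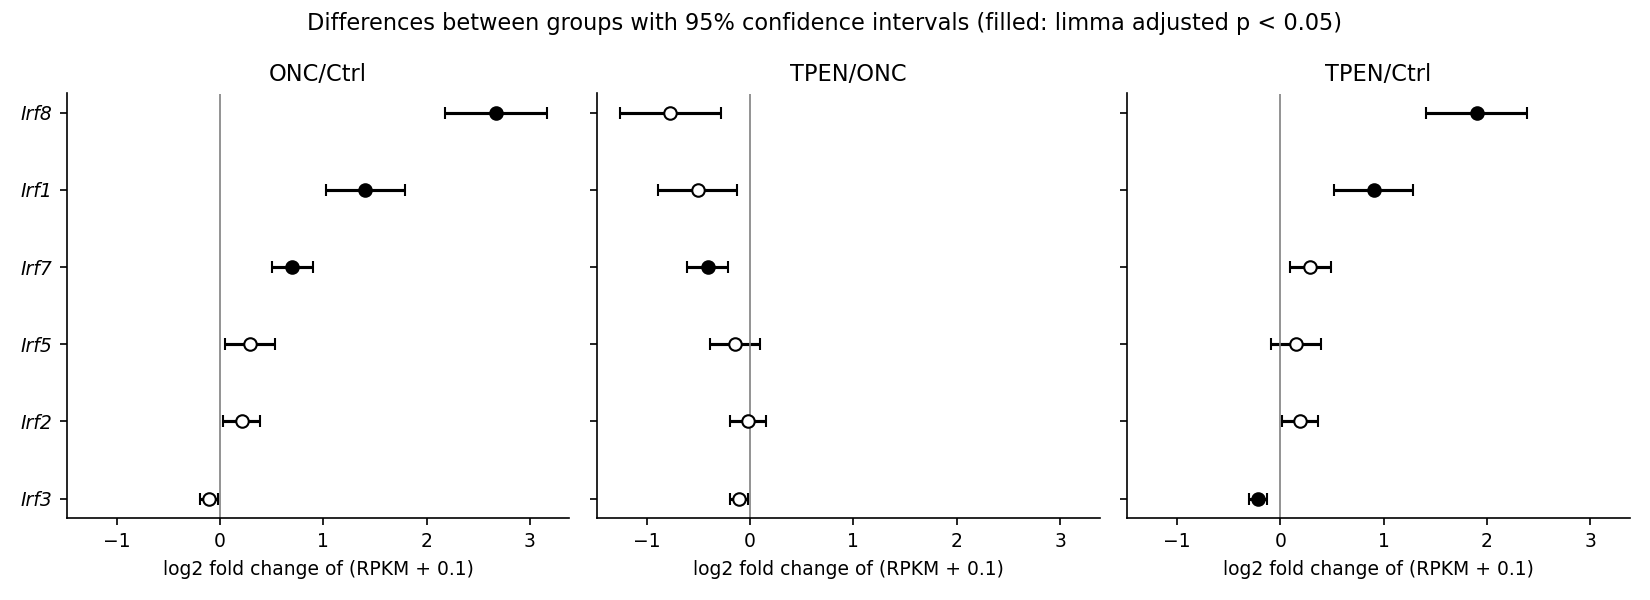
log2 fold change of RPKM + 0.1 (horizontal axis) with 95% confidence intervals for the 6 tested members in ONC/Ctrl, TPEN/ONC and TPEN/Ctrl, where filled points have a limma adjusted p under 0.05. Irf8, Irf1 and Irf7 lay to the right of 0 in ONC/Ctrl and to the left of 0 in TPEN/ONC, where Irf7 alone was called.

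TPEN/ONC asked what the chelator changed among crushed eyes. Irf7 was lower in TPEN than in ONC, and it was the only member to pass the test. The call, 1 of 6 members lower and 0 higher, stood against 4.14% of tested genes lower and 3.24% higher, and 0 members passed together with a 1.5-fold change, as 2.03% of tested genes did. At an unadjusted p under 0.05, 4 members were lower and 0 higher, against 12.3% and 9.63% of all tested genes at that threshold, and voom called Irf7 and Irf8. The groups did not overlap for 4 members, each lower in TPEN, as for 15.6% of tested genes. The median log2 fold change was −0.28 over the members and −0.011 over all tested genes.

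Irf7 was at 4.27, 4.40 and 4.18 RPKM in TPEN, each below the lowest ONC library at 5.42 RPKM and above the highest Ctrl library at 3.81 RPKM. The log2 fold change from ONC was −0.41 (SE 0.087, adjusted p = 0.0210), a level 0.752 times that in ONC with an interval of 0.657 to 0.861. The call rested on the library set: adjusted p was 0.0822 without ONC replicate 1, 0.0644 without ONC replicate 2, 0.0626 without TPEN replicate 1 and 0.0729 without TPEN replicate 3, at log2 values from −0.45 to −0.36 over all 9 omissions. Irf8 was at 0.787, 1.02 and 0.590 RPKM in TPEN, below all ONC and above all Ctrl libraries but with a wide spread. Its log2 difference from ONC was −0.77 with an interval of −1.26 to −0.28 and an adjusted p of 0.0668. It passed in 3 of 16 alternatives, at 0.000544 with voom, 0.0177 with a pseudocount of 1 RPKM and 0.0481 without Ctrl replicate 3. In the others the adjusted p was as high as 0.192, without TPEN replicate 3. Irf1 was at 0.805, 0.781 and 0.593 RPKM in TPEN, again between the other groups, with a log2 difference from ONC of −0.51, an interval of −0.89 to −0.13 and an adjusted p of 0.112 that passed in no alternative.

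Irf3 was lowest in TPEN, at 17.8, 18.5 and 17.5 RPKM, below every ONC library by a small margin (log2 difference −0.11, adjusted p = 0.138). Irf2 at 6.20, 6.37 and 6.13 RPKM and Irf5 at 4.63, 5.27 and 4.19 RPKM overlapped their ONC ranges. Their log2 differences from ONC had intervals of −0.20 to 0.16 for Irf2 and −0.39 to 0.097 for Irf5.

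TPEN/Ctrl, which shares its libraries with the other comparisons, showed Irf8 and Irf1 higher and Irf3 lower. These calls, 2 of 6 members higher and 1 lower, stood against 8.36% and 5.01% of tested genes, and the 2 higher ones were past 1.5-fold as 3.45% of tested genes were. The groups did not overlap for 5 members, as for 31.3% of tested genes, and the median log2 fold change was 0.24 against 0.012 over all tested genes. Irf8 was 3.73-fold higher (interval 2.66 to 5.24, adjusted p = 0.000367) and Irf1 1.87-fold (interval 1.44 to 2.43, adjusted p = 0.00668). Irf3 differed by −0.22 on the log2 scale (SE 0.039, adjusted p = 0.00542), a level 14.0% lower with the groups apart, and the call held in each of 17 alternatives. Irf7 was 1.22-fold higher with an adjusted p of 0.0563. Of 17 alternatives it passed in 1, at 0.0380 without Ctrl replicate 3, and the highest was 0.152 without Ctrl replicate 1. Irf5 and Irf2 differed by 0.15 and 0.19 (adjusted p = 0.425 and 0.155).

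The part of the rise after the crush that was still present in the TPEN libraries was 52.1 ± 17.1% for Irf8, 52.9 ± 16.0% for Irf1 and 35.2 ± 4.87% for Irf7, each TPEN library set against the ONC and Ctrl means. The SD therefore leaves out the spread of the ONC and Ctrl libraries. Irf8 and Irf1 did not pass the test in TPEN/ONC. The ranges, 35.5 to 69.6% for Irf8, 34.5 to 63.7% for Irf1 and 30.7 to 40.4% for Irf7, overlapped. In the exact permutation test over the 3 groups, with 280 arrangements of the libraries, Irf1, Irf3, Irf7 and Irf8 reached 0.00357, the smallest p it can give. Irf2 gave p = 0.0393 and Irf5 0.0893 in the same exact test. The p of Irf2 rose to between 0.0607 and 0.143 in 6 of the 9 omissions of a library. No comparison of a pair of groups can go below 0.1 in the exact test with 3 libraries against 3.

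Ratios between members within a library were taken for pairs with related roles, as a percentage of RPKM, which does not depend on the scaling of the library, and as log2 ratios of RPKM + 0.1 for the test. Irf1, the activator, was at 6.22 ± 0.493% of the RPKM of Irf2, its antagonist, in Ctrl, at 16.9 ± 1.81% in ONC and at 11.6 ± 1.75% in TPEN. Irf7, the inducible starter of interferon transcription, was at 16.8 ± 2.34%, 29.7 ± 1.33% and 23.9 ± 0.0824% of Irf3, the constitutive one. All TPEN libraries lay between the Ctrl and the ONC libraries in both ratios. Irf8 was at 3.43 ± 1.63%, 27.1 ± 2.01% and 16.8 ± 2.66% of Irf5, which is also abundant in myeloid cells. On the scale of log2(RPKM + 0.1), which makes the change of a gene as low as Irf8 in Ctrl smaller than the percentages do, the ratios differed by 1.20, 0.81 and 2.38 in ONC/Ctrl and by −0.49, −0.30 and −0.62 in TPEN/ONC, in the order named. Each ratio differed between the 3 groups at p = 0.00357 in the exact permutation test, the smallest possible, so the members of each pair changed unequally. Irf1, Irf7 and Irf8 reached the same p alone, so the ratios restate their changes and are not separate evidence.

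**Figure D3:**
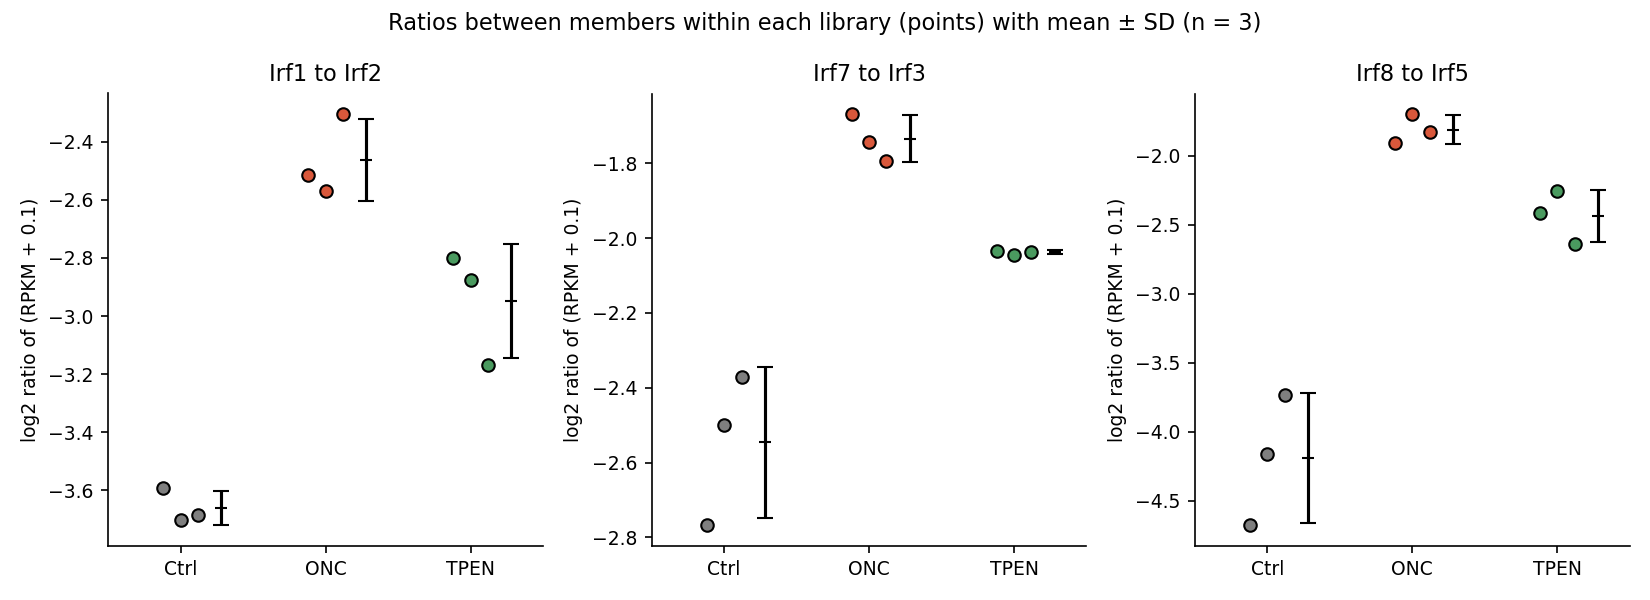
log2 ratio of RPKM + 0.1 (vertical axis, with a separate range in each panel) of Irf1 to Irf2, Irf7 to Irf3 and Irf8 to Irf5 in each library, with mean ± SD (n = 3) beside the points. In each panel the ONC libraries were highest, the Ctrl libraries lowest and the TPEN libraries between them without overlap.

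The rest of the pathway was described from fixed lists, and their counts stand beside the shares of all genes given above for the adjusted and the unadjusted p. Listed genes under 0.5 RPKM in Ctrl, such as Ifih1, Ddx58 and Ifnar2, passed the filter through the crushed groups. Counts of tested genes therefore favour genes that were high after the crush. Upstream, 8 of 16 receptors, sensors and adaptors were tested, of which 3 rose in ONC/Ctrl and 0 fell, also at an unadjusted p under 0.05, with a median log2 fold change over the list of 0.10. These were the RNA sensors Ifih1 (log2 1.35, SE 0.18, adjusted p = 0.000588) and Ddx58 (1.20) and the Toll-like receptor adaptor Myd88 (0.84). In TPEN/ONC 0 of the 8 passed with limma, 1 was lower at an unadjusted p under 0.05 (12.3% of all tested genes) and 1 was called lower with voom. The same 3 were higher in TPEN/Ctrl, but of the 9 omissions of a library only those of Ctrl replicate 3 or ONC replicate 3 kept the call of Ifih1. Of 8 kinases and scaffolds that act on the factors, Irak4 rose by 0.46, a call that of the 9 omissions only those of TPEN replicate 1 or 3 kept, Chuk fell by 0.27 and Azi2, a scaffold of TBK1, fell by 0.22 in ONC/Ctrl. The median over the list was 0.10. In TPEN/ONC 0 of the 8 passed with limma, 2 were higher and 1 lower at an unadjusted p under 0.05 (9.63% and 12.3% of all tested genes), and voom called 1 higher. Azi2 was lower in TPEN/Ctrl by −0.13 on the log2 scale, a call lost without Ctrl replicate 1 or TPEN replicate 2.

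Among 10 tested partners and cofactors, 5 rose in ONC/Ctrl and 0 fell, with a median log2 fold change of 0.40, and 3 were lower in TPEN/ONC. Irf9 was at 3.53 ± 0.199, 7.51 ± 0.326 and 4.87 ± 0.251 RPKM in Ctrl, ONC and TPEN, and Stat2, which binds IRF9, at 6.66 ± 0.0469, 9.75 ± 0.253 and 7.68 ± 0.373 RPKM. Both were highest in ONC and lower in TPEN, with log2 differences in TPEN/ONC of −0.34 for Stat2 (adjusted p = 0.00421) and −0.62 for Irf9 (adjusted p = 0.000878). In TPEN/Ctrl 5 partners were higher, and 3 without Ctrl replicate 1, with Nfkb1, an NF-κB subunit, at 0.88.

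No interferon gene was among the 5 of 14 interferons and interferon receptors in the table. Of 4 tested receptor genes, Ifnar2, a subunit of the type I interferon receptor, rose by 1.65 (SE 0.17, adjusted p = 0.000117), and Ifngr2 by 0.38, a call kept only without Ctrl replicate 3 or with all libraries. Ifnar2 was lower in TPEN/ONC by −0.65 with an adjusted p of 0.0498, which likewise passed only with all libraries or without Ctrl replicate 3. Downstream, 17 of 34 interferon-induced genes were tested, and 16 rose in ONC/Ctrl with a median log2 fold change over the list of 2.32. Isg15, a ubiquitin-like modifier, went from 0.298 ± 0.102 RPKM in Ctrl to 3.17 ± 0.252 in ONC and 1.02 ± 0.422 in TPEN, and Ifit3, a component of antiviral RNA-binding complexes, from 4.16 ± 0.274 to 28.2 ± 0.402 and 15.6 ± 0.902 RPKM. In TPEN/ONC 10 of the 17 were lower and 0 higher, but 5 without ONC replicate 1, 5 without ONC replicate 2, 6 without ONC replicate 3 and 6 without TPEN replicate 3. In TPEN/Ctrl 15 were higher and 0 lower. Isg15 and other genes of this list were under 0.5 RPKM in Ctrl and passed the filter through the crushed groups, so these counts favour genes high there.

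Markers of microglia and macrophages moved in the same directions as Irf8, Irf1 and Irf7. All 18 tested markers of microglia and macrophages, of 21 in the table, rose in ONC/Ctrl with a median log2 fold change of 2.76, 18 were higher in TPEN/Ctrl and 10 were lower in TPEN/ONC (6 without ONC replicate 2, 6 without ONC replicate 3 and 16 with voom). Their summed level was 14.9 to 16.2 RPKM in Ctrl, 137 to 139 in ONC and 72.4 to 75.4 in TPEN, ratios of 8.88 in ONC/Ctrl and 0.535 in TPEN/ONC beside 10.0 and 0.569 for Irf8, 3.13 and 0.679 for Irf1 and 1.64 and 0.747 for Irf7. The sum leans on abundant markers such as Ctss, at 53.0 RPKM in ONC and 30.7 in TPEN. Single markers differed from the sum, with Lyz2 at 19.3 RPKM in ONC and 4.48 in TPEN. None of the defining markers was at 0 in any library: Itgam was at 0.332, 5.45 and 2.12 RPKM and Cx3cr1 at 0.634, 4.01 and 2.87 RPKM in Ctrl, ONC and TPEN. Itgam and other markers under 0.5 RPKM in Ctrl passed the filter through the crushed groups, so the counts of this list favour genes high there. P2ry12, Tmem119, Aif1 and Ptprc had their highest mean in ONC and their lowest in Ctrl too. The part of these cells in the changes of the family was not tested. The interferon-induced genes showed a like course, from 13.2 to 15.8 RPKM in sum in Ctrl to 84.8 to 86.5 in ONC and 43.6 to 44.4 in TPEN.

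**Figure D4:**
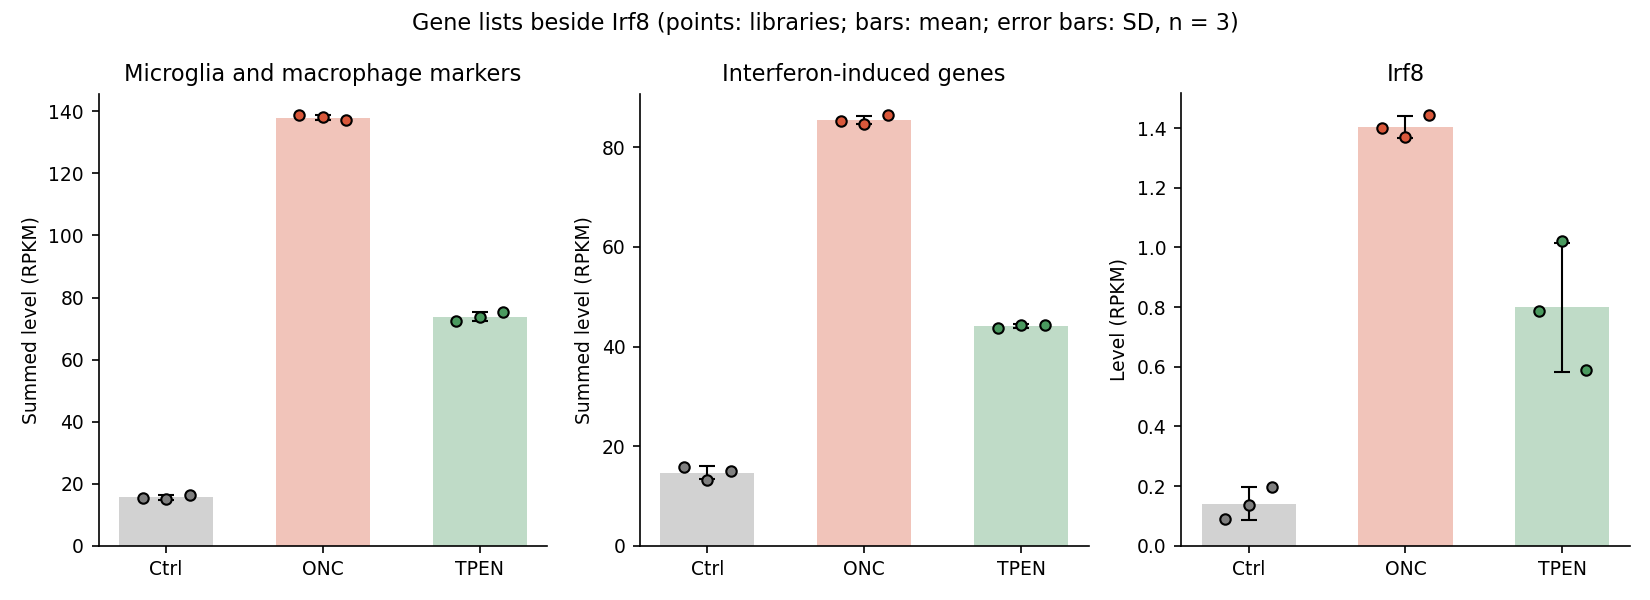
Summed RPKM of the microglia and macrophage markers and of the interferon-induced genes, and RPKM of Irf8 (vertical axes, from 0), in the Ctrl, ONC and TPEN groups, with points for libraries, bars for means and error bars for the SD (n = 3). All were lowest in Ctrl, highest in ONC and between in TPEN, and the TPEN libraries of Irf8 were more spread than those of the sums.

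Markers of the labelled cell type stood at very different levels. The RGC list summed to 312 to 419 RPKM over the libraries. The neurofilament gene Nefl was at 258 ± 3.13, 264 ± 7.70 and 198 ± 6.85 RPKM, and Thy1, which encodes CD90, at 4.74 ± 0.208, 5.35 ± 0.161 and 7.12 ± 0.443 RPKM (SD, n = 3) in Ctrl, ONC and TPEN. Rbpms, Slc17a6 and Pou4f1, which define RGCs in the retina, had means under 0.5 RPKM over all libraries, and rod and cone markers summed to 16386 to 19540 RPKM. The rod and cone sum was 0.869 times the Ctrl mean in ONC and 0.932 in TPEN, with 9 of 12 tested markers lower in ONC/Ctrl and 1 higher (0 in 8 of the 9 omissions of a library, all but that of TPEN replicate 1), and 7 higher and 1 lower in TPEN/ONC. Of 9 markers of Müller glia and astrocytes, 3 rose and 3 fell in ONC/Ctrl, with Gfap at 2.79, 22.2 and 14.4 RPKM in Ctrl, ONC and TPEN, and of 9 RGC markers 3 rose and 1 fell (2 without Ctrl replicate 3, and 3 with quantile normalization or voom). In TPEN/ONC 5 of the 9 Müller glia and astrocyte markers were lower and 2 higher (1 or 0 in 8 of the 9 omissions of a library, all but that of Ctrl replicate 2, and 0 with the replicate block), and 4 of the 9 RGC markers were lower and 2 higher. The sums of these lists in TPEN were 0.769 and 0.777 times those in ONC. They lean on abundant markers, Apoe at 268 RPKM in ONC and 178 in TPEN and Nefl as given above. Single markers such as Thy1 went the other way. The single tested marker of lymphocytes and neutrophils, Csf3r, differed by 2.04 on the log2 scale in ONC/Ctrl and by −1.35 in TPEN/ONC. How far these cells contribute to the family's levels was not tested.

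The genes whose course over the 9 libraries was most like that of a called member were found among the 12143 genes that averaged 1 RPKM or more, by Pearson's r of log2(RPKM + 0.1), a description in which all points share library and group. They were Il10ra, the interleukin-10 receptor subunit, the leukocyte integrin Itgb2 and the translation initiation factor Eif3c for Irf1 (r from 0.978 to 0.984). For Irf7 they were Trim56, a ubiquitin ligase of nucleic acid sensing, Limch1 and the thioredoxin Txn1 (0.977 to 0.980). The nearest to Irf8 were the tubulin Tubb2b, Gm21970 and the small heat shock protein Hspb6 (0.991 to 0.994), and to Irf3 9330121J05Rik, Palm and the rod channel subunit Cngb1 (0.964 to 0.987).

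Some members share exon bases with a neighbour, and the sources used here do not say whether strand was used in counting, so reads there cannot be assigned with certainty. Irf5 (chr6:29526625-29541871, GRCm38) shares 411 exon bases, 14.1% of its exon length, with Tnpo3 on the opposite strand, which was at 3.83, 4.24 and 3.97 RPKM in Ctrl, ONC and TPEN and was not called. Irf3 (chr7:44997648-45002848) shares 88 bases with Bcl2l12, also lower in TPEN/Ctrl (log2 −0.44, adjusted p = 0.00887), and Irf7 (chr7:141262706-141266481) 45 bases with Phrf1. Irf8 (chr8:120736358-120756694) lies within the span of Gm20388 on the same strand but shares 0 exon bases with it. Irf1 (chr11:53770014-53778374) and Irf2 (chr8:46739732-46847458) shared none with a listed gene.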

How the data were processed

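RNA from sorted cells was made into stranded libraries, and reads were trimmed with Trimmomatic 0.36 per the labels and aligned with STAR 2.5.3a to GRCm38 by the authors. The deposited table held RPKM per gene and library, the exon length of each gene, and p-value and log2 fold change columns of the authors' own comparisons, which were not used here. From the RPKM values, whole reads were recovered (100% of values within 0.02 reads), with 19946993 to 23109754 reads per library, and a floor of 3 reads is 0.130 to 0.150 RPM, for counting error only. How molecular identifiers were treated is not given in the sources used here.

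log2(RPKM + 0.1) of genes averaging 0.5 RPKM or more was fitted over all 9 libraries with limma 3.58.1 (R 4.3.3, trend), with p-values adjusted by Benjamini and Hochberg over 13566 genes. Fold changes are on this scale and understate those of low genes. Exact permutation tests (two-sided) used scipy 1.17.1. Alternatives were quantile normalization, voom on TMM-scaled whole reads, other filters and a pseudocount of 1 RPKM, 6 libraries only, a replicate block, GC and length trends removed (GC for 97.2% of genes) and each library left out. Some items that the rules would name are not reported here. The members and gene lists were chosen with earlier results of these data known. Named were all members, at most 3 called genes of a list in each comparison with the largest absolute log2 fold change, defining markers of microglia and macrophages and of RGCs, and the 3 genes most like each called member.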

Additional observations from a re-analysis of the deposited data

How the results depend on the processing

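Of 300 alternative values of the members' fold changes, 287 kept their direction and their side of the threshold, and all 90 of the within-library ratios did. The count of called members was 3 in ONC/Ctrl and 3 in TPEN/Ctrl, and 1 in each with a mean of at least 1 RPKM, a filter that leaves Irf1 and Irf8 untested. In ONC/Ctrl Irf3 was called lower besides with quantile normalization, with voom and with GC and length trends removed. Over the omissions of a library the count stayed at 3 in ONC/Ctrl and ran from 3 to 4 in TPEN/Ctrl, where Irf7 was added without Ctrl replicate 3. In TPEN/ONC the count of 1 was 2 with voom, 2 with a pseudocount of 1 RPKM and 0 with a replicate block, and ran from 0 to 2 over the omissions of a library. Irf2 turned from −0.021 to 0.030 in TPEN/ONC without ONC replicate 1 (limma adjusted p = 0.902), within a range of −0.048 to 0.030 over the omissions. Replicate numbers did not pair the libraries: deviations of libraries with the same number correlated at −0.0623 to 0.0268 over 9 pairs, and a library correlated best with its own number in 4 of 18 comparisons with another group. With the block, Irf7 in TPEN/ONC had an adjusted p of 0.0565. Over all genes, voom gave 1637 calls in TPEN/ONC against 1002, and the calls in TPEN/ONC fell to between 536 and 641 without ONC replicate 1, 2 or 3 or TPEN replicate 1 or 3. The share of higher calls in TPEN/ONC was 43.9%, and 54.3% with quantile normalization, and in TPEN/Ctrl 62.5%, and 52.4% with quantile normalization, 49.2% with voom and 40.8% with GC and length trends removed. Depth limits Irf1 and, in Ctrl, Irf8. The cause of these shifts was not tested.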

Other observations

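Among genes around the family that were under the filter, Ikbke and Spi1 were picked after their values were seen. Ikbke encodes IKKε, a kinase of IRF3 and IRF7. It had 11, 3 and 4 reads in the Ctrl libraries, 78, 66 and 62 in ONC and 2, 4 and 4 in TPEN, so the TPEN libraries lay at the Ctrl level and well below ONC. Without the filter on low genes its log2 difference was 1.74 in ONC/Ctrl (limma adjusted p = 7.65e-05) and −1.87 in TPEN/ONC (adjusted p = 0.000212), on counts too low to size a fold. Spi1 encodes PU.1, the partner of IRF8, and had 6, 2 and 4 reads in Ctrl, 50, 54 and 40 in ONC and 14, 16 and 31 in TPEN. Its log2 difference was 2.39 in ONC/Ctrl (adjusted p = 0.000168) and −0.96 in TPEN/ONC (adjusted p = 0.0598), and the TPEN libraries lay between the other groups, as those of Irf8 did.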
